A study of Mus musculus with 16 samples.

Results

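The effect of losing Ogr1 was examined in mouse resident peritoneal macrophages held at acidic pH, using the 8 arrays at pH 6.7 out of the 16 arrays of the series. Of these 8 arrays, 4 came from Ogr1-deficient cells (-/-, KO in the figures) and 4 from wild-type cells (+/+, WT in the figures). All groups shared the C57BL/6 background, RPMI medium with 10% fetal calf serum, and 24 h at the stated pH. The other 8 arrays, 4 of each genotype at pH 7.7, are used here to show where pH 6.7 differs and to estimate the spread between arrays. The titles give pH 6.7 and 7.7, whereas the treatment text gives 6.8 and 7.6. Separate animals or cultures are not stated for the replicates, and the p-values therefore cover only the spread among these arrays, part or all of which may be technical. They state neither how the deletion was made nor the age of the mice. Since the targeted gene is not analysed here, genotype labels were not checked against it.

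Ogr1 encodes a proton-sensing G protein-coupled receptor that is silent at slightly alkaline pH and becomes active as the medium turns acidic. Its best known route runs through Gq proteins and phospholipase C to inositol phosphates and calcium, and in some cells it also raises cyclic AMP. Resident peritoneal macrophages are long-lived phagocytes of the serous cavity that depend on the transcription factor Gata6. The comparison asks what these cells express differently in acid when the receptor is absent.

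Macrophage markers were bright, with 18 of 20 listed pan-macrophage markers tested and a mean log2 intensity over them of 8.02 to 8.35 on the wild-type and 7.93 to 8.17 on the Ogr1-deficient arrays at pH 6.7. Cd68, a lysosomal glycoprotein of phagocytes, was at 10.32 ± 0.02 and 10.29 ± 0.02 (SD, n = 4 each) in the wild-type and deficient groups. Gata6 was at 5.69 ± 0.19 and 5.60 ± 0.21. Wild-type pH 7.7 replicate 2 correlated least with the other arrays across all probe sets. Its median r was 0.883, against 0.907 to 0.923 for the rest. The 8 arrays at pH 6.7 lay between 0.913 and 0.921.

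Within each group, some arrays carried a second set of transcripts that did not separate by genotype or pH. Sparc, a matrix-associated glycoprotein, had the largest spread within groups of all tested genes with at least 3 probe sets, and 38 such genes, Sparc included, correlated with it at r of at least 0.9 over the 16 arrays. They included Cyp11a1, Hsd3b1 and Fdx1, which act in steroid hormone synthesis, Inhba, which encodes an activin and inhibin subunit, Sfrp2 and Sfrp4, which encode secreted Wnt modulators, and Clu, which encodes the chaperone clusterin. At pH 6.7, Cyp11a1 was at 3.15, 6.38, 1.80 and 5.36 on wild-type replicates 1 to 4 and at 5.43, 1.83, 1.99 and 1.63 on deficient replicates 1 to 4. Wild-type replicates 2 and 4 and deficient replicate 1 were therefore high. Wild-type replicate 3 and deficient replicates 1 and 4 were high at pH 7.7. The mean over the 38 genes was 3.97 to 5.13 on these 6 arrays and 2.25 to 2.65 on the other 10. With 2 wild-type and 1 deficient array high at pH 6.7, and 1 and 2 at pH 7.7, all 38 genes were lower in deficient cells at pH 6.7, by a median log2 difference of -0.60, and higher at pH 7.7, by a median of 0.91. None of these 38 genes belonged to the macrophage or other cell marker lists. Counts below are also given without these 6 arrays and with the mean of the 38 genes as a covariate, both chosen after the data were seen.

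**Figure D1:**
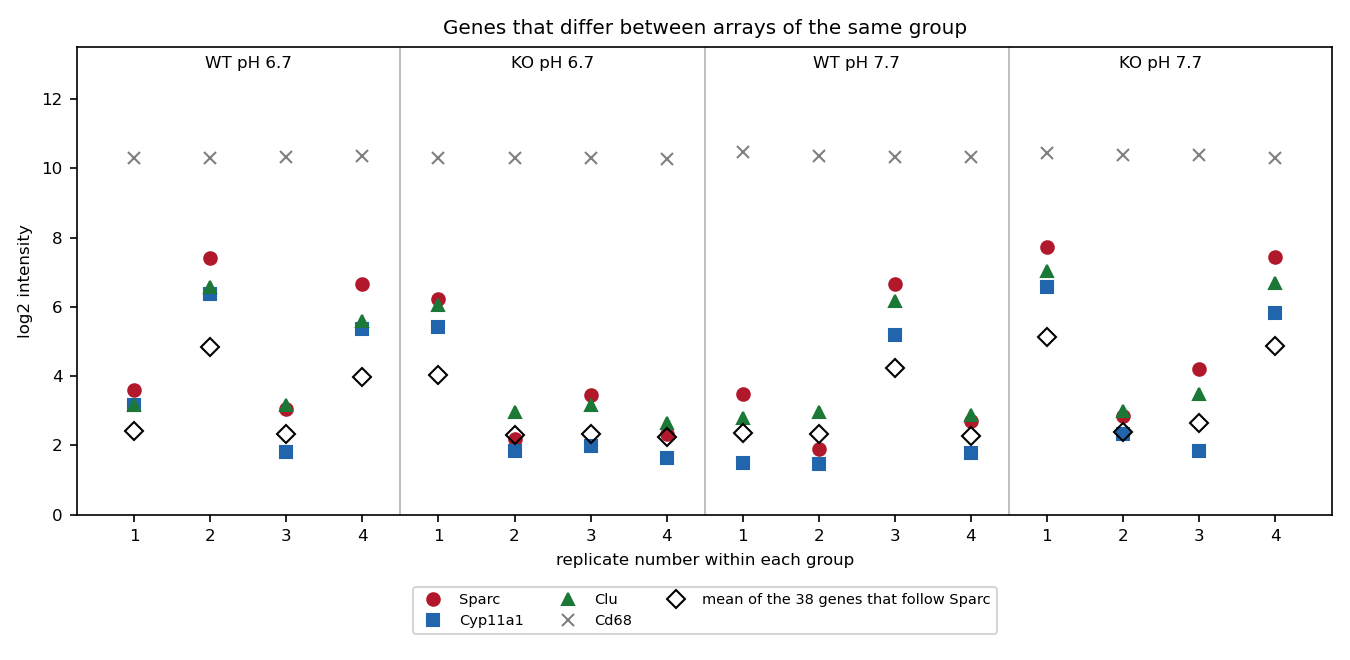
Log2 intensity (y axis) of Sparc, Cyp11a1, Clu, the macrophage gene Cd68 and the mean of the 38 genes that follow Sparc, for each of the 16 arrays (x axis: replicate number, by group; WT wild type, KO Ogr1-deficient). On 6 arrays the mean of the 38 genes lies between 3.97 and 5.13 and on the other 10 between 2.25 and 2.65, while Cd68 stays level.

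Ogr1 loss at pH 6.7 left few individual differences that passed the test. Of 9387 tested genes, 3 (0.032%) differed at an adjusted p under 0.05 in limma's moderated test with Benjamini-Hochberg adjustment, and all 3 rose in deficient cells: Gm6983, Zfp595 and 1700094D03Rik. At an unadjusted p under 0.05 there were 1140 genes (12.1%), of which 859 (9.15%) were higher and 281 (2.99%) lower in deficient cells. The 4 deficient arrays did not overlap the 4 wild-type arrays in 823 genes (8.77%), lying above them in 658 (7.01%) and below them in 165 (1.76%). Differences were small, with 230 genes (2.45%) reaching 0.5 and 19 (0.202%) reaching 1 in size on the log2 scale, against a median standard error of 0.13. The 5% quantile of the differences was -0.27 and the 95% quantile 0.34, and 5959 genes (63.5%) were above 0.

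The split between higher and lower values changed with the scaling and with the choice of probe sets. The median over all tested genes was 0.05 above 0, and the arrays' medians over tested genes did not overlap between genotypes, at 4.69 to 4.74 in wild type and 4.77 to 4.84 in deficient cells. After each array was centred on its median, the split at an unadjusted p under 0.05 turned to 413 higher and 705 lower, and after quantile normalization of the gene values it was 555 higher and 504 lower. The share that was higher was thus 75.4% as deposited, 36.9% centred and 52.4% quantile normalized. With the brightest probe set of each gene the split was 664 higher and 1101 lower (37.6% higher), and with the mean over probe sets above the median it was 902 and 922 (49.5% higher), both over more genes than the main test. With the 6 arrays high in the Sparc group left out, 2 genes passed, Dleu2 and Rbmx2-ps, and neither was among the 3. With the Sparc group as a covariate, the same 3 genes passed.

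Gm6983, annotated as a pseudogene and measured by 1 probe set, was at 4.07, 3.91, 4.12 and 3.89 on wild-type replicates 1 to 4 and at 4.74, 4.76, 4.95 and 4.70 on deficient replicates 1 to 4. The groups did not overlap and the difference was 0.79 ± 0.11 (SE, adjusted p = 0.0164). It passed in 13 of 16 fits with a single array removed and lost the call without deficient pH 6.7 replicate 4 or wild-type pH 6.7 replicate 2 or 4, where the adjusted p reached 0.0583. As a pseudogene with 1 probe set, its signal cannot be told apart from that of related transcripts.

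Zfp595, which encodes a KRAB zinc finger protein, was at 2.61, 2.66, 3.29 and 2.59 in wild type and at 3.98, 3.75, 3.76 and 4.32 in deficient cells. The groups did not overlap, and the difference of 1.16 ± 0.18 (adjusted p = 0.0312) was the largest of the 3. All 6 probe sets were higher in deficient cells, by 0.16 to 3.36, and without the probe set at 3.36 the mean difference was 0.72. Of the wild-type arrays, 3 of 4 were below the median of all probe sets. The call held in 10 of 16 such fits and was lost without wild-type pH 6.7 replicate 1, 2 or 4, deficient pH 6.7 replicate 1 or 4, or wild-type pH 7.7 replicate 1, with the adjusted p reaching 0.125. Zinc finger genes of this kind have close relatives, and whether its probe sets also measure a relative was not tested.

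1700094D03Rik, a protein-coding gene for which no role is given here, was at 2.95, 2.73, 3.11 and 3.03 in wild type and at 3.95, 3.43, 3.96 and 3.92 in deficient cells. The difference was 0.86 ± 0.14 (adjusted p = 0.0420), with 5 of 6 probe sets higher in deficient cells and 3 of 4 wild-type arrays below the median of all probe sets. The call held in 4 of 16 such fits, namely those without deficient pH 7.7 replicate 3 or 4, deficient pH 6.7 replicate 2 or wild-type pH 7.7 replicate 3.

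None of the other genes passed the threshold, and those with the smallest p are given as values. Zc3h12c, an RNA-binding zinc finger gene of the Regnase family, was at 5.01, 5.09, 5.24 and 5.16 in wild type and at 5.50, 5.66, 5.53 and 5.52 in deficient cells, 0.43 ± 0.08 higher (adjusted p = 0.0871). All 5 of its probe sets were higher. Tank, which encodes a TRAF-binding regulator of NF-kB and interferon signalling, was at 5.31, 5.17, 5.06 and 5.17 in wild type and at 5.71, 5.50, 5.63 and 5.79 in deficient cells, 0.48 ± 0.09 higher (adjusted p = 0.0871). Neither gene overlapped between genotypes, as their choice required.

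Nampt, the rate-limiting enzyme of NAD salvage, was the brightest gene of this group, at 6.65, 6.69, 6.63 and 6.58 in wild type and at 6.94, 7.15, 7.10 and 7.14 in deficient cells. All 13 of its probe sets were higher in deficient cells and the difference was 0.44 ± 0.09 (adjusted p = 0.104). Mphosph10, part of the U3 snoRNP that processes ribosomal RNA, was higher by 0.56 ± 0.11 (adjusted p = 0.0962), with 12 of 12 probe sets higher. Timmdc1, an assembly factor of respiratory complex I, was higher by 0.48 ± 0.10 (adjusted p = 0.104), with 7 of 7 probe sets higher. Fam220a was higher by 0.59 ± 0.11 (adjusted p = 0.0743), but 1 of its 4 probe sets stood at 2.22 and without it the mean difference was 0.04.

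Of the genes with the smallest p, the 3 that were lower in deficient cells were all dim there. Htra4, of the HtrA serine protease family, was at 3.15, 3.27, 3.26 and 3.52 in wild type and at 2.70, 2.54, 2.75 and 2.83 in deficient cells, a difference of -0.59 ± 0.10 (adjusted p = 0.0623). Phlda1, a pleckstrin homology-like domain gene, differed by -0.74 ± 0.15 (adjusted p = 0.101). Tgif2, a homeobox repressor that acts on TGF-beta and Smad signalling, differed by -0.58 ± 0.12 (adjusted p = 0.104). On the deficient arrays, Htra4 and Tgif2 were below the median of all probe sets on 4 of 4 and Phlda1 on 3 of 4, so these differences lie partly in the range of background.

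**Figure D2:**
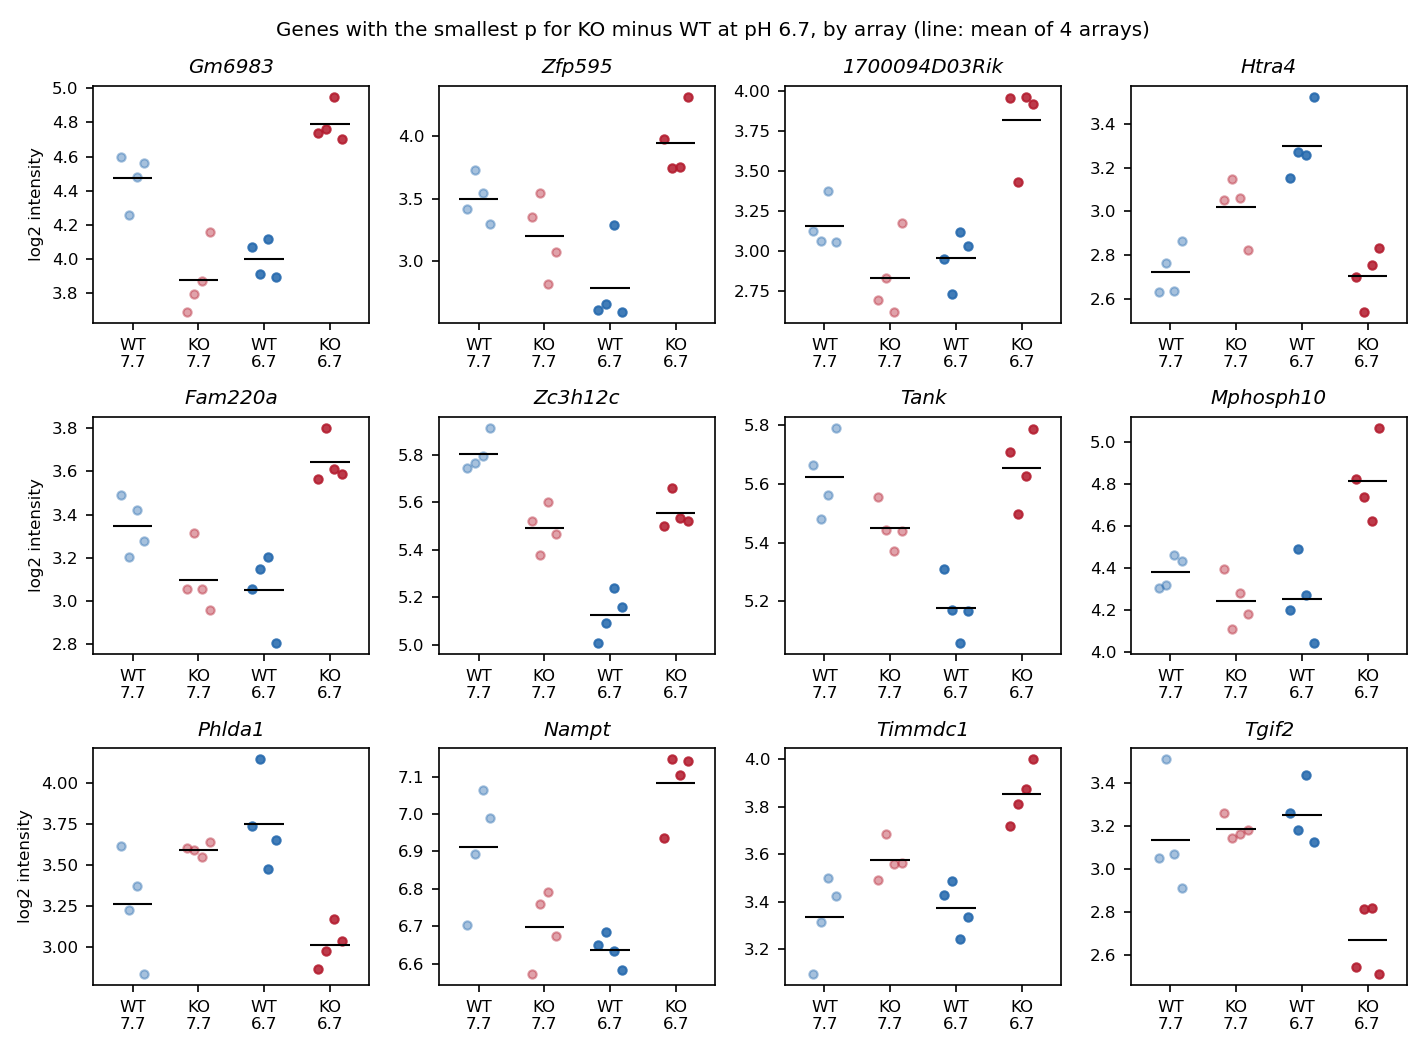
Log2 intensity (y axis) of 12 genes on each of the 16 arrays, by genotype (WT wild type, KO Ogr1-deficient) and pH (x axis), with a line at the mean of 4 arrays. In every panel the 4 KO points at pH 6.7 lie wholly above or wholly below the 4 WT points at pH 6.7. The 10 genes with the smallest p were picked among genes without overlap at pH 6.7, so this separation was required of them. Gm6983 and 1700094D03Rik were picked as called genes for this contrast, which makes the separation likely.

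The same contrast between the 8 arrays at pH 7.7, which share no group mean with pH 6.7 but share its estimate of spread, gave 0 genes past the threshold in limma, 820 genes (8.74%) at an unadjusted p under 0.05, and 339 genes (3.61%) whose genotypes did not overlap, with deficient cells above in 223 (2.38%) and below in 116 (1.24%). Across the 9387 genes, the genotype differences at the 2 pH values ran against each other, with Pearson r = -0.35 and Spearman rho = -0.26, given as a description since genes are not independent. Of the 151 genes at an unadjusted p under 0.05 at both pH values, 26 differed in the same direction and 125 in opposite directions. These 151 genes made up 13.2% of the genes with such a p at pH 6.7 and 18.4% of those at pH 7.7. The Sparc group moved with this pattern. With its 6 arrays left out, r was -0.12 and 118 genes were split 49 to 69, whereas with its level as a covariate r was -0.31 and 138 genes were split 21 to 117. Its part in the opposition was not tested beyond these fits. At an unadjusted p under 0.05, 519 genes were higher and 301 lower at pH 7.7. Without wild-type pH 7.7 replicate 2, which correlated least with the other arrays, 291 were higher and 532 lower. The correlation between the 2 pH values was not computed for that fit.

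The test of the difference between the genotype effects at pH 6.7 and pH 7.7 passed for 10 genes (0.107%), 8 (0.0852%) with a more positive difference at pH 6.7 and 2 (0.0213%) with a more negative one. The 3 genes called at pH 6.7 were all among them. Gm6983 was lower by 0.60 at pH 7.7 and Zfp595 and 1700094D03Rik by 0.30 and 0.33, so that the differences between pH values were 1.39 ± 0.16 (adjusted p = 0.000893), 1.46 ± 0.26 (adjusted p = 0.0359) and 1.18 ± 0.20 (adjusted p = 0.0281). The difference for Zfp595 depended on the probe set. It was 7.13 with the brightest probe set (adjusted p = 0.0207) and 0.30 with the median over probe sets (adjusted p = 0.755). The others included Zc3h12c (0.74 ± 0.12), Fam220a (0.84 ± 0.15), Htra4 (-0.89 ± 0.15) and Loxl3, a lysyl oxidase-like matrix enzyme (-0.73 ± 0.12). Loxl3 was below the median of all probe sets on the 4 deficient arrays at pH 6.7 and the 4 wild-type arrays at pH 7.7. Htra4 was below it on those same arrays and on 3 of 4 deficient arrays at pH 7.7. It thus passed the filter on dim genes mainly through wild type at pH 6.7, the group where it was high.

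Dleu2, a long noncoding RNA that hosts miR-15a and miR-16-1, was also among the 10. On its 1 probe set it was at 2.58, 3.39, 2.67 and 2.35 in wild type and at 3.90, 3.90, 4.29 and 3.88 in deficient cells at pH 6.7, and at 3.59, 3.30, 3.80 and 3.75 and then 2.10, 1.79, 2.06 and 3.29 at pH 7.7. Deficient cells were thus wholly above wild type at pH 6.7 and wholly below it at pH 7.7. Both low groups were dim, below the median of all probe sets on 3 of 4 wild-type arrays at pH 6.7 and 3 of 4 deficient arrays at pH 7.7. The difference was 1.25 ± 0.26 at pH 6.7 (adjusted p = 0.104) and -1.30 ± 0.26 at pH 7.7 (adjusted p = 0.207), and the 2 differed from each other by 2.55 ± 0.37 (adjusted p = 0.0149). With the 6 arrays high in the Sparc group left out, Dleu2 passed at both pH values, at 1.40 ± 0.18 (adjusted p = 0.0319) and -1.62 ± 0.18 (adjusted p = 0.0103). That fit kept only wild-type replicates 1 and 3 at pH 6.7 and deficient replicates 2 and 3 at pH 7.7. The arrays left out were at 3.39 and 2.35 in those wild-type and 2.10 and 3.29 in those deficient cells. Of these, 3.39 and 3.29 lay nearest the other genotype within their groups. The other 2, Gm4573, a pseudogene, and Gm15448, rested on 2 and 1 probe sets, with differences between pH values of 1.69 ± 0.31 and 2.96 ± 0.55. Gm4573 was below the median of all probe sets on 4 wild-type and 1 deficient arrays at pH 6.7, and on 3 and 4 at pH 7.7. It thus passed the filter on dim genes mainly through deficient cells at pH 6.7, where it was high. Without the 6 arrays or with the covariate, 2 genes passed for this difference in each fit.

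**Figure D3:**
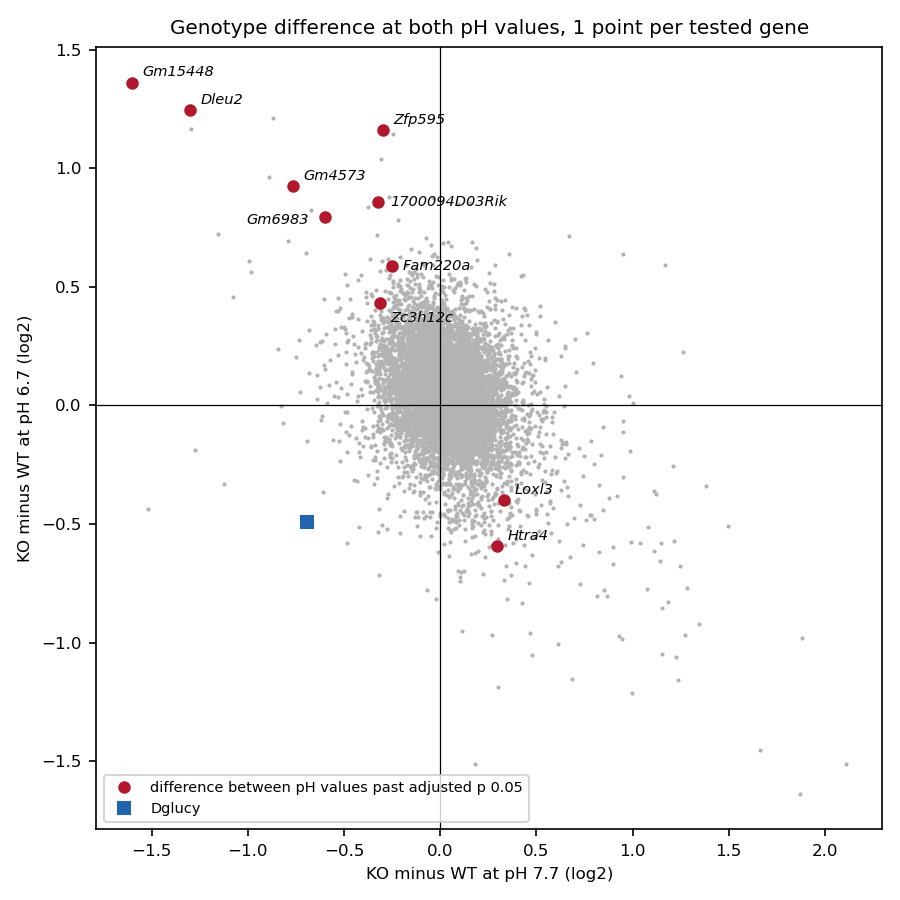
Genotype difference (KO Ogr1-deficient minus WT wild type, log2) at pH 6.7 (y axis) against the same difference at pH 7.7 (x axis), with 1 point per tested gene. Red points are the 10 genes whose differences at the 2 pH values differed from each other, and the blue square is Dglucy, lower in KO cells at both.

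Next to the deleted locus, both adjacent genes were lower in deficient cells at pH 6.7, Dglucy short of the threshold and Ccdc88c too dim for the main test. Among the 15 protein-coding genes on each side of Ogr1 in the GRCm38.p6 RefSeq order, 14 of 30 were tested and 0 passed at pH 6.7 in limma. At an unadjusted p under 0.05, 2 were higher and 2 lower, as were 9.15% and 2.99% of all tested genes. Dglucy, the adjacent gene on the left, encodes a mitochondrial D-glutamate cyclase. It was at 4.76, 4.26, 4.59 and 4.46 in wild type and at 4.14, 3.78, 4.01 and 4.18 in deficient cells at pH 6.7. At pH 7.7 it was at 3.99, 3.84, 4.29 and 4.18 in wild type and at 3.26, 3.40, 3.38 and 3.49 in deficient cells. Deficient arrays lay below all wild-type arrays at each pH, by -0.49 ± 0.13 (adjusted p = 0.150) and -0.69 ± 0.13 (adjusted p = 0.113). The 2 differences did not pass the test against each other (0.20 ± 0.18, adjusted p = 0.651). Of its 16 probe sets, 14 were lower at pH 6.7, 13 at pH 7.7 and 11 at both.

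Ccdc88c, the adjacent gene on the right, encodes Daple, a Dishevelled-binding protein. Its wild-type values were 3.01, 3.03, 3.21 and 3.26 and its deficient values 2.58, 2.89, 2.66 and 2.62 at pH 6.7. Without the filter on dim genes it differed by -0.44 ± 0.11 (adjusted p = 0.195) at pH 6.7 and by -0.07 ± 0.11 at pH 7.7. Averaged over its 15 probe sets above the median of all probe sets, it differed by -0.82 ± 0.14 (adjusted p = 0.0336) at pH 6.7 and by 0.03 ± 0.14 at pH 7.7, and 29 of its 38 probe sets were lower at pH 6.7. The next gene on that side, Ppp4r3a, a regulatory subunit of protein phosphatase 4, was higher by 0.21 ± 0.10 (adjusted p = 0.386). Farther out on that side Rin3, a Rab5 exchange factor, differed by -0.28 ± 0.10 (adjusted p = 0.286).

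**Figure D4:**
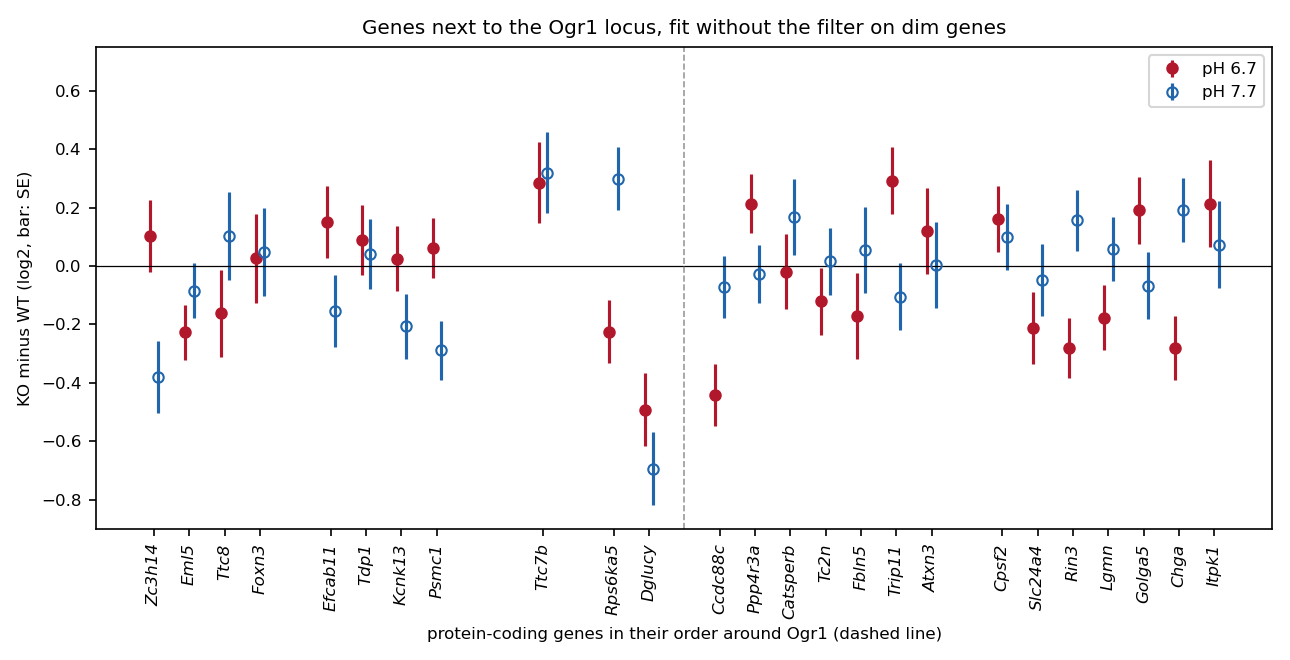
Genotype difference (KO Ogr1-deficient minus WT wild type, log2; y axis) at pH 6.7 (filled) and pH 7.7 (open) for the protein-coding genes with probe sets around Ogr1, in genome order (x axis; gaps are genes with none), from the fit without the filter on dim genes. Bars are 1 standard error. Dglucy is low at both pH values and Ccdc88c at pH 6.7.

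Across all genes, 8 showed deficient arrays wholly on the same side of wild type at both pH values, and 27 wholly on opposite sides. Deficient arrays lay wholly above wild type in 7.01% of tested genes at pH 6.7 and 2.38% at pH 7.7. They lay wholly below it in 1.76% and 1.24%. Some genes fall on the same side at both by these shares alone, and whether the 8 share a genotype effect was not tested. Dglucy and Esrra, an orphan nuclear receptor that drives mitochondrial genes, were below wild type at both. Esrra differed by -0.33 ± 0.13 at pH 6.7 and -0.35 ± 0.13 at pH 7.7. The 6 above wild type at both were Nudt5, Ahi1, Pank3, Serpinb1a, Timm17a and Tkt. Serpinb1a, an inhibitor of neutrophil proteases, differed by 0.64 ± 0.24 and 0.95 ± 0.24, and Nudt5, an ADP-sugar hydrolase, by 0.59 ± 0.16 and 0.28 ± 0.16. None of the 8 passed the threshold at either pH.

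The remaining genes are described by 46 lists of pathways and cell markers holding 870 genes, of which 616 were tested. In limma, 0 of the 616 passed at pH 6.7. Of the 45 lists with tested genes, 23 had a median above 0 and 22 below, beside the median of 0.05 over all tested genes. Of the 45 medians, 32 kept their sign under both other scalings and 22 also with probe sets combined in other ways, with array weights and without each pH 6.7 array in turn. The lists below are therefore given as counts and medians, with no test.

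**Figure D5:**
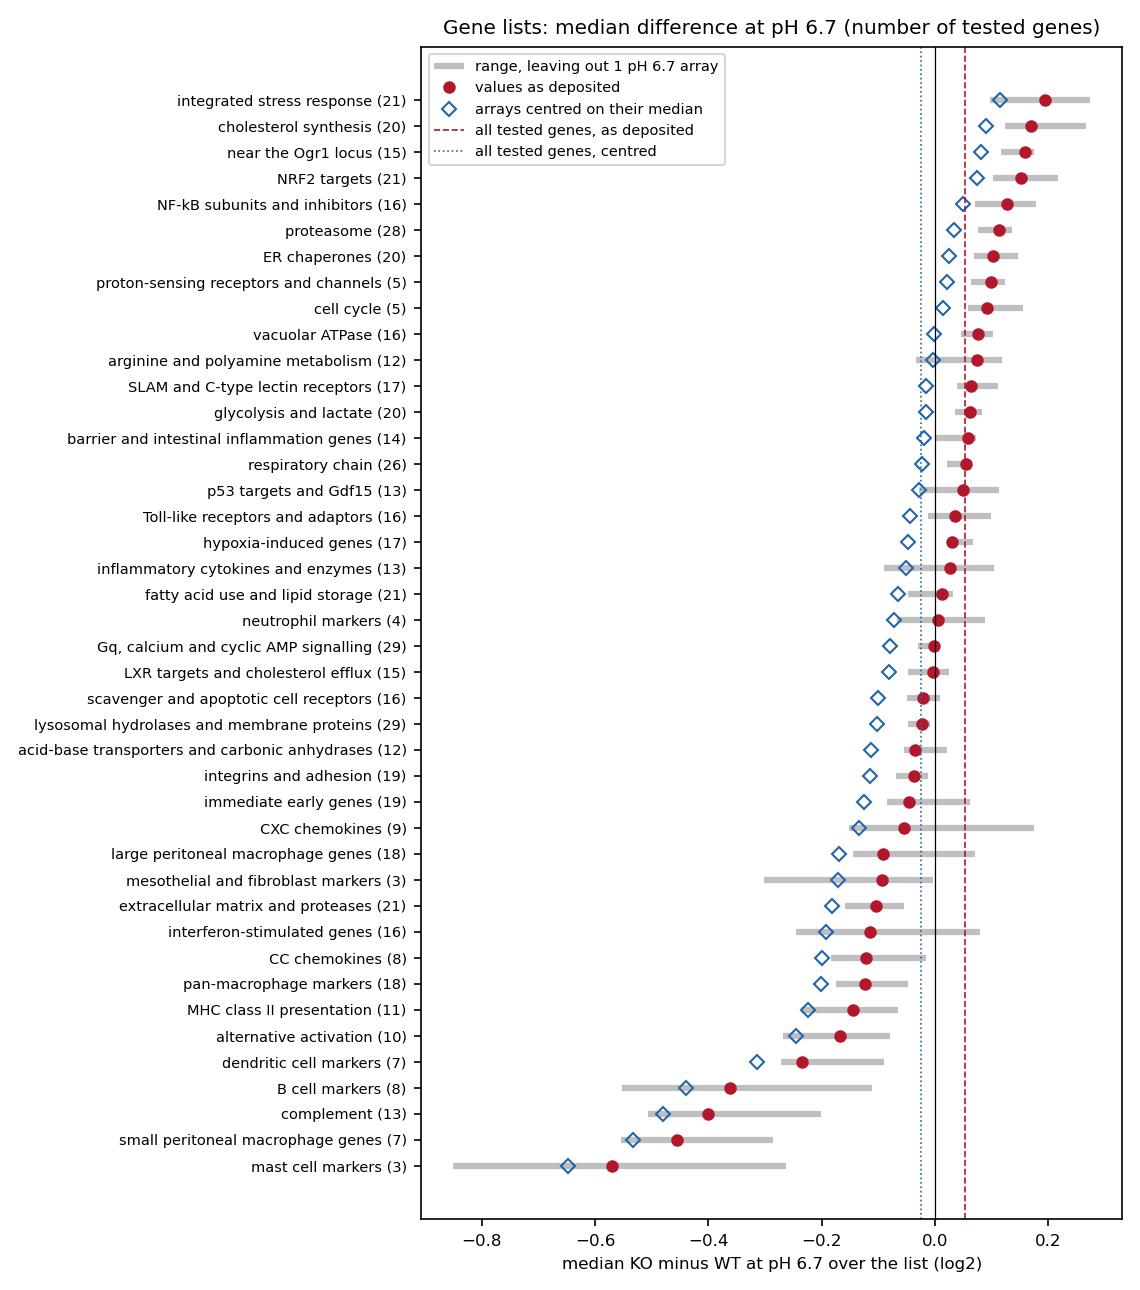
Median genotype difference at pH 6.7 (KO Ogr1-deficient minus WT wild type, log2; x axis) over the tested genes of the lists reported here with at least 3 tested (y axis, number in brackets). Red points are the values as deposited, blue diamonds the values with arrays centred on their median, and grey bars the range over fits that leave out 1 pH 6.7 array. Complement, B cell, mast cell and small peritoneal macrophage genes lie lowest, and the integrated stress response and cholesterol synthesis highest.

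Complement genes were lower in deficient cells throughout. Macrophages make much of the complement found in tissues, and the list held components, regulators and receptors. All 13 tested genes of 18 listed, of which the 3 C1q chains also stand in the macrophage list, were lower, with a median difference of -0.40. Of these, 2 (C3 and C4b) reached an unadjusted p under 0.05, a level reached by 12.1% of all tested genes in either direction and by 2.99% as lower. C3, the central component, was at 8.84, 7.88, 7.96 and 8.04 in wild type and at 7.88, 7.46, 7.56 and 7.84 in deficient cells, a difference of -0.50 ± 0.18 (adjusted p = 0.278). C4b, of the classical and lectin pathways, was at 8.74 on wild-type replicate 1 and 7.93 to 8.06 on the others, and at 7.88, 7.78, 7.68 and 7.61 in deficient cells, a difference of -0.45 ± 0.14 (adjusted p = 0.228). The genotypes barely separated, and wild-type replicate 1 stood far above the other wild-type arrays in both genes.

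The C1q chains that recognise bound antibody, C1qa, C1qb and C1qc, differed by -0.54, -0.40 and -0.46, and overlapped. Cfb and Cfp, factor B and properdin of the alternative pathway, differed by -0.53 and -0.46. The receptors C5ar1 and C3ar1 differed by -0.20 and -0.01. Without wild-type replicate 1 the median over the list was -0.20. With the 6 arrays of the Sparc group left out all 13 stayed lower, with a median of -0.64. That fit kept wild-type replicate 1, where the mean over the list was 8.44 against 7.84 to 8.04 on the other wild-type arrays. It dropped deficient replicate 1, at 7.97 against 7.67 to 7.74 on the other deficient arrays. Whether the larger median reflects more than the arrays kept was not tested. With the level of the Sparc group as a covariate 12 were lower, with a median of -0.35. At pH 7.7 the median was 0.27 the other way. There the mean over the list was 7.18 on wild-type replicate 2 and 7.83 to 8.12 on the other wild-type arrays, against 7.94 to 8.18 in deficient cells.

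More macrophage and antigen presentation genes were lower than higher, none past the threshold. Of the 18 pan-macrophage markers tested, 13 were lower (median -0.12, and -0.05 without deficient replicate 2), with the integrin Itgam at -0.18 ± 0.10. Of the 18 tested genes typical of large peritoneal macrophages, 12 were lower (median -0.09), but the median was 0.07 without wild-type replicate 1 and 0.00 with the median over probe sets. Tgfb2, a TGF-beta ligand and the gene of that list with the smallest p, was higher by 0.30 ± 0.11 (adjusted p = 0.283). Of the 7 tested small peritoneal macrophage genes, 4 were lower and 3 higher (median -0.46). The 4 lower ones, Cd74, H2-Aa, H2-Ab1 and H2-Eb1, also belong to class II presentation, and Irf4, Retnla and Itgax were the 3 higher ones. Among the 11 tested MHC class II presentation genes 8 were lower (median -0.14, and -0.07 without deficient replicate 2). Cd74, the invariant chain, was at 7.82, 8.29, 7.53 and 7.29 in wild type and at 6.49 to 7.40 in deficient cells, a difference of -0.61 ± 0.28 (adjusted p = 0.386). H2-Eb1, a class II beta chain, differed by -0.52 ± 0.26, and deficient replicate 2 was lowest in both genes. Cd80, a costimulatory ligand, went the other way, at 0.30 ± 0.11 (adjusted p = 0.289).

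Markers of other cells that peritoneal preparations can hold differed by list, and none passed the threshold. All 8 tested B cell markers of 16 listed were lower, with a median of -0.36 that was -0.11 without wild-type replicate 2 and -0.55 without wild-type replicate 4. Tnfrsf13c, the BAFF receptor, and Cd79a, of the B cell receptor, differed by -0.51 ± 0.25 and -0.63 ± 0.38. The mean level of the 8 was 3.32 to 4.52 on wild-type and 3.41 to 3.69 on deficient arrays. All 3 tested mast cell markers of 14 listed were lower, with a median of -0.57 that was -0.26 without wild-type replicate 1 and -0.85 without wild-type replicate 2. Their mean level was 2.60 to 4.83 on wild-type and 2.53 to 3.32 on deficient arrays, and Cpa3, the mast cell carboxypeptidase, was at 6.35 on wild-type replicate 1 against 2.44 to 3.79 on the other wild-type arrays. Tpsb2, a mast cell tryptase, differed by -0.57 ± 0.29. Dendritic cell markers had 6 of 7 lower (median -0.24, and -0.09 without deficient replicate 4), with Irf8 at -0.24 ± 0.10 and Clec9a at -0.37 ± 0.23. Of 16 T and NK cell markers, 1 was tested, Il7r at -0.18 ± 0.19, and of 9 eosinophil markers, 1 was tested, Alox15 at 0.12. Of 14 neutrophil markers, 4 were tested, 2 higher and 2 lower (median 0.01), with S100a8, a calgranulin, at 0.32 ± 0.15 and Mmp9, a gelatinase, at -0.45 ± 0.23. Of 18 mesothelial and fibroblast markers, 3 were tested and lower, among them Col1a1 at -0.33 ± 0.09 (adjusted p = 0.191) and Krt8 at -0.09 ± 0.25. The untested markers were too dim or had no probe set, and 0 of 12 endothelial and red cell markers were tested. In these bulk samples fewer cells of a type and less RNA per cell cannot be told apart, and the part of these cells in the complement and class II values was not tested.

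Genes of proton sensing and of the pathway downstream of Ogr1 gave small differences, none past the threshold. Among proton-sensing receptors and channels 5 of 14 were tested, 4 higher and 1 lower, with a median of 0.10 that was 0.02 with centred arrays. Gpr65, the main proton-sensing receptor of leukocytes and coupled to cyclic AMP, was at 7.36, 7.19, 7.10 and 7.01 in wild type and at 7.33, 7.19, 7.28 and 7.25 in deficient cells, with overlapping groups and a difference of 0.10 ± 0.14. Gpr132 differed by -0.24 ± 0.18 and Hvcn1, the voltage-gated proton channel, by 0.21 ± 0.14. Of 29 tested genes of Gq, calcium and cyclic AMP signalling, 14 were higher and 15 lower, with a median of 0.00. Gna12, a G12-family alpha subunit, was at 5.31, 5.36, 5.15 and 5.15 in wild type and at 4.63, 4.58, 4.83 and 4.93 in deficient cells, a difference of -0.50 ± 0.18 (adjusted p = 0.286). Rcan1, a calcineurin inhibitor induced through NFAT, was higher by 0.40 ± 0.15 (adjusted p = 0.289). Of 19 immediate early genes, 8 were higher and 11 lower (median -0.05), with Klf2 at -0.29 ± 0.09 and the orphan nuclear receptor Nr4a1 at -0.49 ± 0.17, neither past the threshold.

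Inflammatory genes were split. Of 13 tested cytokines and enzymes, 7 were higher and 6 lower (median 0.03). Nlrp3, the inflammasome sensor, was at 3.94, 3.88, 3.99 and 3.84 in wild type and at 4.51, 4.23, 4.24 and 4.67 in deficient cells, wholly higher by 0.50 ± 0.15 (adjusted p = 0.191). Il27, a subunit of interleukin-27, was lower by 0.38 ± 0.14 on the log2 scale (adjusted p = 0.283). NF-kB subunits and inhibitors had 13 of 16 higher (median 0.13), but 9 of 16 with centred arrays (median 0.05) and 8 of 16 with the 6 arrays of the Sparc group left out (median 0.01). Nfkbie and Tnip3, both feedback inhibitors, were each at 0.36 ± 0.15. CC chemokines had 6 of 8 lower (median -0.12) and CXC chemokines 6 of 9 (median -0.05). Ppbp, a platelet and myeloid chemokine, was at 4.89, 3.58, 3.91 and 3.87 in wild type and at 3.07, 2.39, 3.19 and 3.39 in deficient cells, lower without overlap by -1.05 ± 0.36 (adjusted p = 0.245). Ccl22 differed by -0.50 ± 0.26, Ccl5 by -0.29 ± 0.24 and Cxcl16 by 0.21 ± 0.11.

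Toll-like receptors and adaptors had 11 of 16 higher (median 0.04), although Ticam2, the TRAM adaptor of TLR4, was lower without overlap by -0.35 ± 0.10 (adjusted p = 0.175) and Tlr9 differed by -0.70 ± 0.34. Interferon-stimulated genes had 10 of 16 lower (median -0.11), with Stat2 at -0.25 and Oas3 at -0.36, and the median was 0.08 without wild-type replicate 1. The alternative activation list had 7 of 10 lower (median -0.17, and -0.08 without wild-type replicate 2). Ear2, an eosinophil-associated ribonuclease on 1 probe set, was at 5.83, 6.67, 6.26 and 5.31 in wild type and at 4.86, 4.20, 5.56 and 5.24 in deficient cells, a difference of -1.05 ± 0.34 (adjusted p = 0.226). Arg1, which hydrolyses arginine to ornithine and urea, was at 8.19, 7.86, 8.20 and 7.13 and at 6.48 to 7.32 in deficient cells, a difference of -0.77 ± 0.39 (adjusted p = 0.431). Both overlapped by 1 wild-type array, replicate 4. Arg2 and the arginine carrier Slc7a2 differed by -0.58 ± 0.24 and -0.26 ± 0.11, while the arginine and polyamine list as a whole had 8 of 12 higher (median 0.07).

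Among lipid genes, those of sterol synthesis had the highest median, again with no gene past the threshold. Cholesterol synthesis had 17 of 20 tested genes higher, with a median of 0.17 that was 0.27 without wild-type replicate 4. Msmo1, a sterol C4-methyl oxidase, was at 5.69, 5.69, 5.76 and 5.59 in wild type and at 6.36, 6.36, 6.19 and 6.05 in deficient cells, wholly higher by 0.56 ± 0.16 (adjusted p = 0.191). Cyp51, the lanosterol demethylase, was higher by 0.61 ± 0.27 (adjusted p = 0.362) with overlap. The list stayed above 0 with centred arrays, at 0.09 with 16 of 20 higher, and with the 6 arrays of the Sparc group left out, at 0.30 with 17 of 20 higher. At pH 7.7 its median was 0.31, and 6 of its genes were higher at an unadjusted p under 0.05 there, as were 5.53% of all tested genes. The mean over the list at pH 7.7 was 4.83 on wild-type replicate 2 and 5.04 to 5.59 on the other wild-type arrays. It was 5.30 to 5.66 on the deficient arrays.

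LXR targets were split 7 to 8 (median 0.00). Abca1, the cholesterol efflux pump, was at 7.79, 7.19, 7.41 and 7.29 in wild type and at 7.15, 6.82, 6.86 and 7.07 in deficient cells, wholly lower by -0.44 ± 0.14 (adjusted p = 0.216), and Pltp, the phospholipid transfer protein, differed by -0.33 ± 0.19. Fatty acid genes were split 11 to 10 (median 0.01). Fabp4, a fatty acid carrier, was wholly higher by 0.36 ± 0.12 (adjusted p = 0.245). Pdk4, which restrains pyruvate oxidation, was lower by -1.01 ± 0.43 (adjusted p = 0.356), with 6.49 on wild-type replicate 1 against 4.44 to 5.15 on the other wild-type arrays. Glycolysis and lactate genes had 14 of 20 higher (median 0.06), close to all genes, while Slc16a3, a lactate exporter, and Ldha were wholly lower by -0.30 ± 0.12 and -0.23 ± 0.10 (adjusted p = 0.314 and 0.360). Respiratory chain genes had 18 of 26 higher (median 0.06), with Ndufa2 at 0.21 and Sdhc at -0.18.

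Stress and protein turnover lists had medians above 0. The integrated stress response had 18 of 21 tested genes higher (median 0.19, and 0.10 without wild-type replicate 1), with Aars at 0.38 ± 0.17 and Cebpg at -0.22 ± 0.10. NRF2 targets had 19 of 21 higher (median 0.15). Gclc, the catalytic subunit for glutathione synthesis, was at 4.44, 5.27, 5.28 and 5.28 in wild type and at 5.19, 5.64, 5.59 and 5.66 in deficient cells, a difference of 0.45 ± 0.19 (adjusted p = 0.338) in which replicate 1 was lowest in each group. Pgd, of the pentose phosphate pathway, differed by 0.27 ± 0.10. Endoplasmic reticulum chaperones had 18 of 20 higher (median 0.10), with Hspa5, the BiP chaperone, wholly higher (0.32 ± 0.14, adjusted p = 0.361) and Xbp1 at 0.33 ± 0.10 (adjusted p = 0.210). The proteasome list had 24 of 28 higher (median 0.11), with Psmb6 at 0.28 and Psmc6 at 0.24. With centred arrays these medians were 0.12 for the integrated stress response, 0.07 for NRF2 targets, 0.02 for chaperones and 0.03 for the proteasome, beside -0.02 over all genes.

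Hypoxia-induced genes had 12 of 17 higher (median 0.03), with Ero1a at 0.21 and P4ha2 at 0.26, and p53 targets 8 of 13 (median 0.05), with the kinase Plk2 wholly higher by 0.43 ± 0.15 (adjusted p = 0.243) and Sesn1 at -0.31. All 5 tested cell cycle genes of 25 listed were higher (median 0.09), among them Pcna at 0.15 and Tk1 at 0.11. These medians lay near that of all genes.

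Genes of the acid compartment and the cell surface showed little. Lysosomal hydrolases and membrane proteins had 17 of 29 lower (median -0.02), with Ctsk, a collagen-degrading cathepsin, at 0.43 ± 0.15 (adjusted p = 0.243) and Neu1, the lysosomal sialidase, wholly lower at -0.32 ± 0.13 (adjusted p = 0.353). Vacuolar ATPase subunits had 14 of 16 higher (median 0.08), with Atp6v1h wholly higher at 0.33 ± 0.13 and Atp6v1c1 at 0.16, and the median was 0.00 with centred arrays. Acid-base transporters had 7 of 12 lower (median -0.03), with the sodium-proton exchanger Slc9a9 at -0.71 ± 0.31 (adjusted p = 0.361).

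Scavenger and apoptotic cell receptors were split 8 to 8 (median -0.02), with Gas6, a bridging ligand for dying cells, at -0.59 ± 0.26 and Colec12 at 0.17. SLAM and C-type lectin receptors had 11 of 17 higher (median 0.06), with Slamf8 at 0.60 ± 0.19 (adjusted p = 0.215) and the adaptor Scimp at 0.45 ± 0.19. Integrins and adhesion genes had 11 of 19 lower (median -0.04), with Icam1 at -0.46 and Itgb7 at 0.36. Barrier and intestinal inflammation genes had 9 of 14 higher (median 0.06), with the phosphatase Ptpn2 wholly higher at 0.27 ± 0.12 (adjusted p = 0.359) and Il10ra at -0.28.

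Extracellular matrix genes and proteases had 13 of 21 lower (median -0.10), but 2 of the 21, Sparc and Adamts1, belonged to the Sparc group. Thbs1, the matrix glycoprotein thrombospondin 1, was at 9.60, 9.64, 9.64 and 9.13 in wild type and at 9.11, 9.01, 8.71 and 8.96 in deficient cells, wholly lower by -0.56 ± 0.18 (adjusted p = 0.230). Mmp13, a collagenase, was at 4.88, 5.33, 5.25 and 5.31 in wild type and at 5.62 to 6.25 in deficient cells, wholly higher by 0.68 ± 0.21 (adjusted p = 0.201).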

How the data were processed

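The values are intensities on a linear scale, 1 per probe set and array, that the authors made from Affymetrix arrays. The submitters' processing notes name RMA and R 2.15.2 for these deposited intensities. Of 241576 probe sets, 213361 carried 1 gene symbol, 5107 several and 23108 none in the platform annotation, and those with 1 symbol were used. Symbols were updated through RefSeq names, giving 20848 genes with a median of 8 probe sets. Log2 was taken and averaged over all probe sets of a gene. The 9387 genes above the array's median probe set on at least 4 of 16 arrays were tested with limma 3.58.1 (lmFit, eBayes, 12 residual degrees of freedom, R 4.3.3) in a fit of all 16 arrays with a mean per group, 2-sided, with Benjamini-Hochberg adjustment and a threshold of 0.05. Errors are standard errors of the fit unless marked SD. The number of arrays, 4 per group, limits the precision. The fit was tested on simulated data. No 2 arrays were identical, and no batch is named in the labels.

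The question, gene lists and tests were chosen with earlier results of these data known. Named are the called genes, the called genes with the smallest p for the difference between pH values, and the 2 with the smallest p in each list. Named too are the 10 with the smallest p among genes with at least 3 probe sets and no overlap between genotypes at pH 6.7. The lack of overlap in these 10 was thus a condition of their choice. Pseudogenes, predicted genes and clone names could not enter the 10. The result of 1 list is not reported here. Any other gene was chosen after its values were seen. Replicate numbers showed no pairing of the genotypes at pH 6.7, where same-numbered wild-type and deficient arrays correlated at -0.08 to 0.10 in their deviations. Pairing of arrays of the same genotype across pH values was not examined.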

Additional observations from a re-analysis of the deposited data

Results flagged for a closer look

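Among the 101 named genes, a single array stood far from the other 3 of its group at pH 6.7 in 17 of 202 groups, and chance alone marks about 1 group in 20. Wild-type replicate 1 was high for C3 at 8.84 against 7.88 to 8.04, for C4b at 8.74 against 7.93 to 8.06 and for Tlr9 at 4.64 against 3.48 to 3.67. The same array was low for Gclc at 4.44 against 5.27 to 5.28, for Xbp1 at 5.21 against 5.48 to 5.50 and for Pcna at 7.65 against 8.16 to 8.23. Wild-type replicate 2 was high for Rhob at 3.45, replicate 3 for Zfp595 at 3.29 against 2.59 to 2.66, and replicate 4 was low for Thbs1 at 9.13 against 9.60 to 9.64. Deficient replicate 1 was high for C1qa at 9.15 and low for Cebpg at 6.09 and for Gclc at 5.19. Deficient replicate 2 was low for 1700094D03Rik at 3.43 against 3.92 to 3.96 and for H2-Eb1 at 4.79. Deficient replicate 3 was low for Arg1 at 6.48 and high for Dleu2 at 4.29, and replicate 4 was high for Atp6v1c1 at 7.74.

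The genotype difference at pH 6.7 differed from that at pH 7.7 in 10 genes by the test of the difference itself. It was 1.39 for Gm6983, 1.46 for Zfp595, 1.18 for 1700094D03Rik, -0.89 for Htra4, 0.84 for Fam220a, 0.74 for Zc3h12c, 2.55 for Dleu2, -0.73 for Loxl3, 1.69 for Gm4573 and 2.96 for Gm15448 on the log2 scale.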

How the results depend on the processing

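The count of genes past the threshold at pH 6.7 was 3 among 9387 tested. It was 72 with the brightest probe set (19 higher, 53 lower) and 29 with the mean over probe sets above the median, where 15774 and 14861 genes passed the filter, so that the tested set changed too, and 0 with the median over probe sets. It was 5 with no filter on dim genes, 0 with the filter at the 75th percentile, 7 with centred arrays, 1 with quantile normalization, 33 with array weights, 0 with only the 8 arrays of the comparison, and 0 to 5 with 1 array left out. Where it was 0, unadjusted p under 0.05 still held for 966 genes (median over probe sets), 529 (75th percentile), 1330 (8 arrays) and 1150 (block). At pH 7.7 the count was 0 and became 1 with centred arrays, quantile normalization, an intensity trend, or the 6 arrays high in the Sparc group left out, and 0 to 3 with 1 array left out. For the difference between pH values it was 10 and became 95 with the brightest probe set, 3 with the median over probe sets, 50 with probe sets above the median, 17 with centred arrays, 44 with array weights, 2 without the 6 arrays or with the Sparc group as covariate, and 1 to 24 with 1 array left out, 24 without wild-type pH 7.7 replicate 1 or 2. With the replicate number as a block (replicate block) the counts were 0, 0 and 20, although the numbers showed no pairing of the genotypes at pH 6.7. The cause of these changes was not tested. Among alternatives for single genes, 17 turned the sign, none past the threshold. With the brightest probe set the value was -0.025 for Alox15, -0.011 for Cxcl16, -0.44 for Tnip3, -0.080 for Xbp1, -0.018 for Gclc, -0.59 for P4ha2, -0.073 for Colec12 and -0.14 for Slamf8, and -0.22 for the pH difference of Fam220a. With the median over probe sets it was -0.11 for Cxcl16 and -0.014 for Hspa5, and with probe sets above the median -0.10 for Tk1. With 1 array left out, Alox15 ran from -0.080 to 0.24, Krt8 from -0.25 to 0.055 and Ccl5 from -0.47 to 0.024, and without the 6 arrays Alox15 was at -0.043. Dim signal limits Zfp595, 1700094D03Rik, Htra4, Tgif2 and Phlda1, which lie near the array median in 1 genotype. It also limits Dleu2, Loxl3 and Gm4573, which lay below the median of all probe sets in some groups. Other named genes were dim too. At pH 6.7, Col1a1 and Oas3 lay below that median on 3 wild-type and 4 deficient arrays, and Krt8 on 4 and 3. Tk1 lay below it on 3 and 3, Scimp on 4 and 2, Il27 on 1 and 4, P4ha2 on 3 and 1, and Tpsb2 on 1 and 3. Fam220a lay below it on 2 wild-type arrays at pH 6.7 and 3 deficient arrays at pH 7.7.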

Other observations

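The next 3 genes were picked after their values were seen, and none passed the threshold at pH 6.7. Ddx10, an RNA helicase of ribosome assembly, was at 3.96, 4.37, 4.10 and 3.54 in wild type and at 4.66, 4.42, 4.64 and 4.76 in deficient cells, a difference of 0.63 ± 0.14 (adjusted p = 0.104). Sdad1 was higher by 0.49 ± 0.11 (adjusted p = 0.127) and Nol11, a nucleolar factor of ribosomal RNA synthesis, by 0.41 ± 0.09 (adjusted p = 0.141). For all 3 the deficient arrays lay wholly above the wild-type arrays.

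Txnip, a thioredoxin-binding protein that responds to glucose, was bright and lower in deficient cells. It was at 8.55, 7.96, 8.26 and 8.17 in wild type and at 7.84, 7.69, 7.74 and 7.60 in deficient cells, a difference of -0.52 ± 0.11 (adjusted p = 0.104). At pH 7.7 the difference was 0.13 ± 0.11.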
